A study of Mus musculus with 4 samples.

Results

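Cdh11, Pi16 and Dpep1 encode proteins of the cell surface that are used as markers of fibroblast states, and they were chosen by symbol from the platform's annotation with their values in these data already known. They are 3 of 13410 genes with a probe, and of 8384 genes measured in 3 or 4 mice. Each has 1 probe, and each has a value on all 4 arrays. The study took lung RNA from 4 A/J mice given bleomycin and set each mouse, on its own 2-colour array, against 1 pool of lung RNA from A/J control mice; both sides were amplified before hybridisation. A/J is an inbred laboratory strain, and bleomycin is a DNA-damaging drug used to injure the lung in animals. Age, sex, dose, route and time after treatment were not given in the sources used here, nor was the number of mice in the pool. Because all arrays share that pool, spread between mice is seen for treated lungs and not for control lungs.

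A value here is the deposited log ratio of an array after its median was set to 0. Which RNA is on top of the ratio is not stated, so genes are described as above or below 0. The order of the titles would put the treated mouse on top, so that a value above 0 would mean more RNA in treated lungs, but this is not settled, and with the pool on top every sign turns. The logarithm was read as base 2, which neither labels nor table state. With the natural logarithm the sides of 0 would be the same and the fold sizes larger. The pairs of arrays correlated with Pearson's r from 0.453 to 0.858 over spots, highest for mice 3 and 4 (0.858) and for mice 1 and 2 (0.729), and none was negative. The labels record no batch for these pairs.

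Fibroblasts of the lung build and hold its connective tissue, and single-cell studies divide them into states by position and activity. Cadherin-11, the product of Cdh11, is a classical cadherin of mesenchymal cells that binds its like on the next cell and is tied to actin through catenins. It is carried by activated fibroblasts and myofibroblasts, and mice without it are known to develop less lung fibrosis after bleomycin. Peptidase inhibitor 16, the product of Pi16, is a membrane-anchored protein with a CAP domain, and in mice it marks fibroblasts of the adventitia around vessels and airways. Dipeptidase 1, the product of Dpep1, is a zinc enzyme held in the membrane by a lipid anchor. It cuts leukotriene D4 to leukotriene E4 and takes part in glutathione breakdown, and in mouse lung it is also known as an adhesion receptor for neutrophils on endothelium. Dpep1 is therefore not a marker of fibroblasts alone. A log ratio gives no level, so which cells of these lungs held the 3 transcripts could not be read from it. In RNA of whole lung, fewer cells of a type and less RNA per cell cannot be told apart.

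Cdh11 and Dpep1 lay above 0 in all 4 mice, and Pi16 lay below 0 in all 4. Among the 6057 genes with 4 values, 24.8% were above 0 on every array and 21.6% below 0 on every array. Since the genes were picked with these values known, they are given as a description and without a test.

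Cdh11 had log ratios of 0.632, 0.825, 1.141 and 0.718 in mice 1, 2, 3 and 4. The highest value was that of mouse 3 and the lowest that of mouse 1. Its mean was 0.83 ± 0.22 (SD, n = 4), which is a 1.78-fold difference between the treated lungs and the pool if the base is 2, with single mice between 1.55-fold and 2.21-fold. Of all tested genes, its mean stood at the 97.9th percentile, and on the single arrays Cdh11 was higher than 94.6% to 97.8% of genes. The mean over mice 1 and 2 was 0.73 and that over mice 3 and 4 was 0.93, a gap no larger than that between mice 3 and 4 themselves (0.42). Without mouse 3 the mean was 0.725 with an SD of 0.10.

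Dpep1 had log ratios of 1.139, 1.055, 0.603 and 0.564 in mice 1, 2, 3 and 4. Mice 1 and 2 were high and close together, mice 3 and 4 were lower and also close together, and no value of one pair lay within the other. The mean was 0.84 ± 0.30 (SD, n = 4), a 1.79-fold difference under base 2, with single mice between 1.48-fold and 2.20-fold. The pair means were 1.10 for mice 1 and 2 and 0.58 for mice 3 and 4, while the gaps within the pairs were 0.08 and 0.04. What separates these pairs is not recorded, and its part in the spread of Dpep1 was not tested. The mean of Dpep1 stood at the 98.0th percentile of tested genes, and on single arrays the gene was higher than 90.6% to 99.0% of genes. Cdh11 and Dpep1 thus had almost the same mean, but they differed in which mice were highest: Cdh11 in mouse 3, and Dpep1 in mouse 1.

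Pi16 had log ratios of -0.427, -0.374, -0.762 and -0.371 in mice 1, 2, 3 and 4. Mice 1, 2 and 4 lay within 0.06 of each other, and mouse 3 was farther below 0. The mean was -0.48 ± 0.19 (SD, n = 4), a 1.40-fold difference under base 2, with single mice between 1.29-fold and 1.70-fold. Without mouse 3 the mean was -0.39, with an SD of 0.03. Its mean stood at the 6.23rd percentile of tested genes, and on single arrays 3.83% to 12.0% of genes were lower. Pi16 was closer to 0 than Cdh11 and Dpep1 in mice 1, 2 and 4, while in mouse 3 its size (-0.762) lay between that of Dpep1 (0.603) and that of Cdh11 (1.141). Mouse 3 thus had the value farthest from 0 for both Cdh11 and Pi16, on opposite sides. The array of mouse 3 also had the widest spread over spots, with an SD of 0.49, beside 0.45, 0.44 and 0.35 for mice 1, 2 and 4. By rank on its array, Cdh11 was higher in mouse 2 (97.8%) than in mouse 3 (97.5%), while Pi16 was lowest in mouse 3. With arrays scaled to the same spread, the SD between mice was 0.16 for Cdh11 and 0.12 for Pi16. The part of array spread in these values was not tested.

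**Figure D1:**
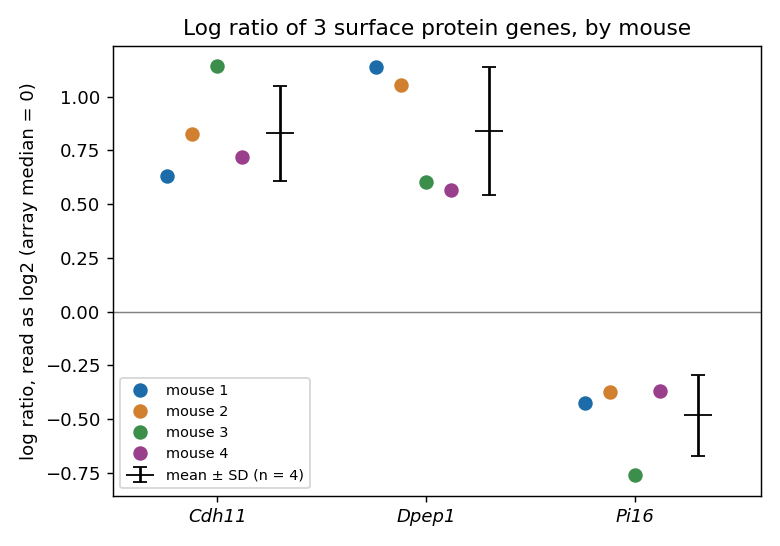
Log ratio (vertical axis, read as log2, array median at 0) of Cdh11, Dpep1 and Pi16 in each of the 4 bleomycin-treated mice against the control pool; coloured points are mice, and black bars are the mean ± SD. Cdh11 runs from 0.632 to 1.141 and Dpep1 from 0.564 to 1.139, both above 0, and Pi16 from -0.762 to -0.371, below 0; all signs turn if the pool is on top of the ratio.

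Most genes of the array lay nearer to 0 than these 3. The median of the mean log ratio over the 8384 tested genes was 0.00, the SD over genes was 0.36, and the median SD between mice was 0.18 for genes with 4 values. The SDs of Pi16 and Cdh11 were near that median, and that of Dpep1 was larger.

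**Figure D2:**
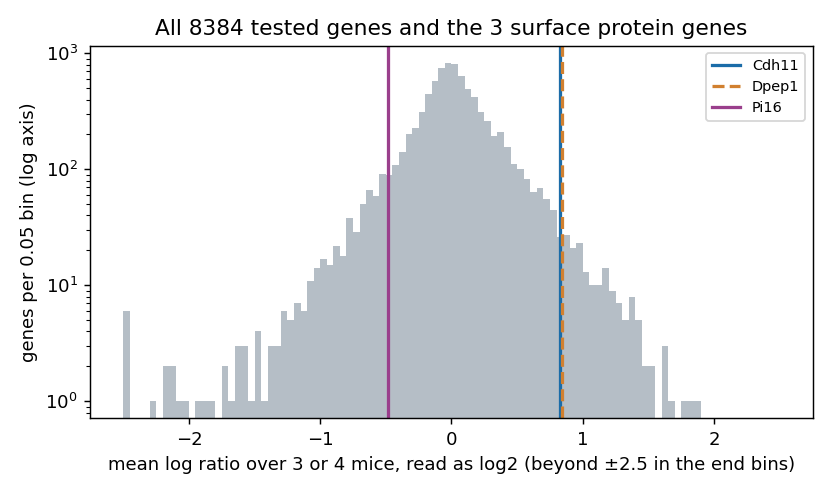
Histogram of the mean log ratio (horizontal axis, read as log2) of the 8384 tested genes, with the number of genes per bin on a log axis and vertical lines at Cdh11 (0.83), Dpep1 (0.84) and Pi16 (-0.48). Cdh11 and Dpep1 fall together in the upper tail, at the 97.9th and 98.0th percentile, and Pi16 lies on the lower side at the 6.23rd.

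Other genes of lung fibroblasts did not move to 1 side. The 4 groups of markers used here, for fibroblasts in general, adventitial fibroblasts, activated fibroblasts with myofibroblasts, and alveolar fibroblasts with lipofibroblasts, held 122 genes beside Cdh11, Pi16 and Dpep1. Of these, 106 had a probe and 69 had enough values, and 7 of the 69 (10.1%) passed limma at a Benjamini-Hochberg adjusted p of at most 0.05, 3 above and 4 below 0. Over all 8384 genes, 1048 passed (12.5%), 645 above 0 (7.69%) and 403 below 0 (4.81%), so the share in fibroblast genes was near that of all genes. The median mean log ratio of the 69 was 0.03. Of the 56 with 4 values, 16 lay above 0 in every mouse, 13 below 0 in every mouse, and 27 (48.2%) on both sides, against 53.5% on both sides among all genes with 4 values.

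Among markers of activated fibroblasts and myofibroblasts, the group that holds Cdh11, 3 of 17 other tested genes passed limma, 1 above and 2 below 0, and the median was -0.02. Postn, which encodes the matrix protein periostin, had log ratios of 1.10, 0.61, 1.06 and 0.68 in mice 1 to 4. Its mean was 0.86 ± 0.26 (SD, n = 4; limma adjusted p = 0.0125), and it was the only one of the 17 with a mean above that of Cdh11. Postn stayed past the threshold whichever mouse was left out, at limma adjusted p up to 0.0468. Spon1 came next below Cdh11, above 0 in every mouse with a mean of 0.80 ± 0.51 (SD, n = 4), and just missed the threshold (limma adjusted p = 0.05005). Lox, the gene of the collagen cross-linking enzyme lysyl oxidase, lay on the other side with -0.80, -1.10 and -0.40 in mice 2, 3 and 4 and a mean of -0.77 ± 0.35 (SD, n = 3; limma adjusted p = 0.0424). Ddah1, which encodes an enzyme that breaks down an inhibitor of nitric oxide synthesis, had a mean of -0.39 ± 0.16 (SD, n = 4; limma adjusted p = 0.0376), with mouse 4 nearest to 0 at -0.155. The call of Ddah1 ended whichever mouse was left out and that of Lox without mouse 1, with limma adjusted p of up to 0.113 and 0.0653. Lox has no value in mouse 1, so its own values were the same in that fit. Tnc, the tenascin C gene, was negative in mice 1 and 2 (-0.31 and -0.55) and positive in mice 3 and 4 (0.46 and 0.26), without passing (limma adjusted p = 0.912). Acta2, the smooth muscle actin gene that defines myofibroblasts, had a probe but too few values.

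Adventitial markers, the group of Pi16, had 1 of 18 other tested genes past limma, below 0, and a median of 0.01. That gene was Col15a1, which encodes a basement membrane collagen, with log ratios of -1.10, -0.73, -0.92 and -0.79 in mice 1 to 4. Its mean was -0.88 ± 0.17 (SD, n = 4; limma adjusted p = 0.00747), and it passed without any 1 of the mice. The mean of Pi16 was higher than those of 3 of these 18 genes and lower than those of the other 15. Dpp4, a surface peptidase that is used together with Pi16 to find adventitial fibroblasts, was above 0 in mice 1 and 2 (0.73 and 0.90) and below 0 in mice 3 and 4 (-0.86 and -0.32). Its mean was 0.11 ± 0.84 (SD, n = 4; limma adjusted p = 0.832), so the values of Dpp4 split by pair of mice, whereas those of Pi16 were below 0 in all. Cd34, a surface sialomucin of these cells and of endothelium, ranged from -0.14 in mouse 1 to 1.14 in mouse 3 (limma adjusted p = 0.178). Clec3b, which encodes tetranectin, had 0.01, -0.49, -0.91 and -0.67 in mice 1 to 4 and did not pass (limma adjusted p = 0.0805). Cd248, Cd55 and Dpt were, like Pi16, below 0 in every mouse, with means of -0.70, -0.23 and -0.20, and did not pass. Sema3c, Anxa3, Efemp1 and Ackr3 were above 0 in every mouse, with means of 0.75, 0.54, 0.31 and 0.39, and did not pass either. Fbln2 and Mfap5, matrix genes of the adventitia, had too few values, and Ly6a was not among the named probes.

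In fibroblasts in general, 1 of 22 tested genes passed limma, and the median was -0.10. The means ran from that of S100a4 to that of Timp3, the gene that passed. S100a4 was below 0 in every mouse, with a mean of -1.95 ± 1.36 (SD, n = 4; limma adjusted p = 0.0552). Timp3, which encodes an inhibitor of matrix metalloproteinases, was above 0 in every mouse (0.62, 0.57, 0.78 and 0.88), with a mean of 0.71 ± 0.14 (SD, n = 4; limma adjusted p = 0.0096), and it passed whichever mouse was left out. The fibrillar collagen genes tested in this group did not pass, and Col1a2 had a probe but too few values. Col1a1 averaged 0.23 ± 0.32 (SD, n = 4; limma adjusted p = 0.279), and Col3a1 was at -1.02 and -1.35 in mice 1 and 2 but at 0.07 and 0.09 in mice 3 and 4 (limma adjusted p = 0.219). The platelet-derived growth factor receptor genes Pdgfra, the usual fibroblast receptor, and Pdgfrb had means of -0.19 ± 0.44 (SD, n = 4; limma adjusted p = 0.477) and 0.07 ± 0.07 (SD, n = 3; limma adjusted p = 0.613). Pdgfra was positive in mice 1 and 2 (0.07 and 0.29) and negative in mice 3 and 4 (-0.61 and -0.53). Dcn, the decorin gene, was at -0.55 in mouse 1 and between 0.23 and 0.84 in the others (limma adjusted p = 0.389). Thy1, a surface glycoprotein gene of fibroblasts, had too few values.

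Alveolar fibroblasts with lipofibroblasts had 2 of 12 tested genes past limma, 1 on each side of 0, and a median of 0.17. Inmt, an indolethylamine methyltransferase gene that is high in alveolar fibroblasts of mouse lung, lay far above 0 with 1.34, 1.48, 2.26 and 2.06 in mice 1 to 4 (mean 1.78 ± 0.45, SD, n = 4; limma adjusted p = 0.00747). Plin2, a lipid droplet gene that macrophages and fat cells also use, lay below 0 at -0.82 ± 0.44 (SD, n = 4; limma adjusted p = 0.0357). Inmt passed without any 1 of the mice, and the call of Plin2 ended without mouse 1, 2 or 3, with a limma adjusted p of up to 0.103. Tcf21, a transcription factor gene of these fibroblasts, was above 0 in every mouse, from 0.11 to 0.93, and did not pass (limma adjusted p = 0.0882). Npnt, the nephronectin gene, had too few values.

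**Figure D3:**
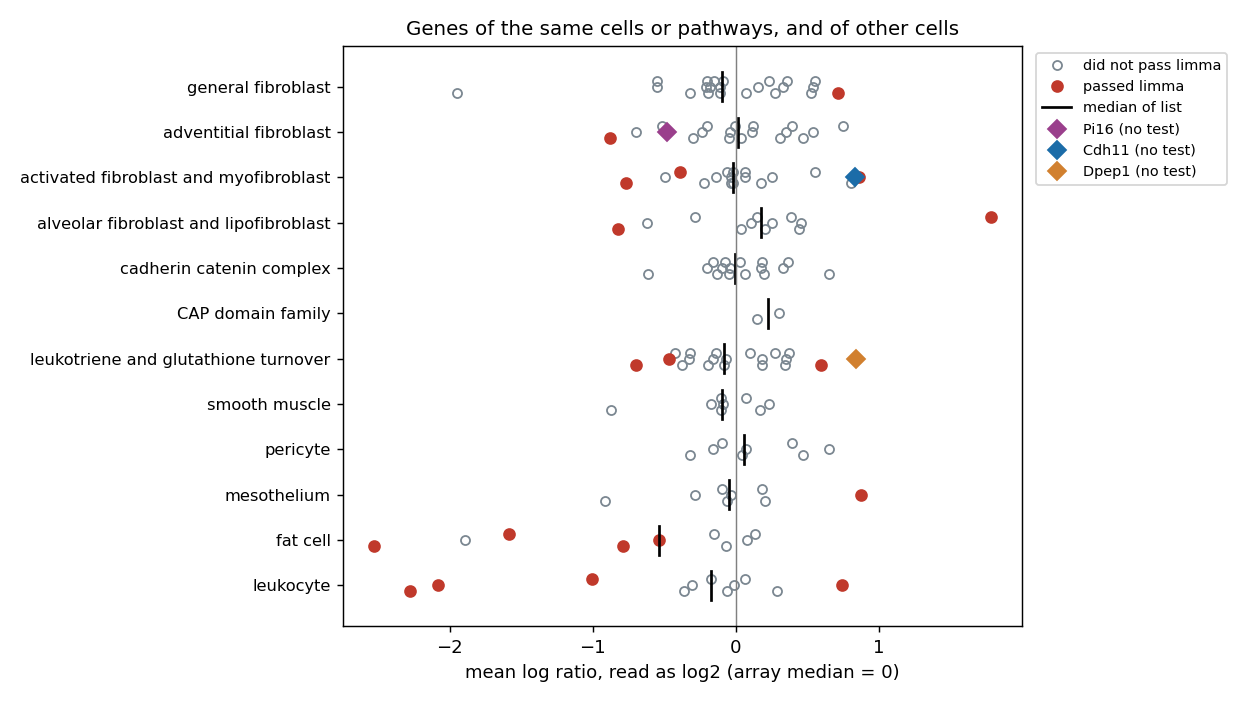
Mean log ratio (horizontal axis, read as log2) of each tested gene in 12 gene groups; filled red points passed limma, open points did not, black ticks are group medians, and diamonds are Cdh11, Pi16 and Dpep1, shown without a test beside their groups. The 4 fibroblast groups spread to both sides of 0 with medians from -0.10 to 0.17, Cdh11 lies between Spon1 and Postn, and Dpep1 lies above all 19 other tested genes of its pathway; all signs turn if the pool is on top of the ratio.

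Partners and relatives of the 3 proteins were looked at against the same share of all genes, of which 12.5% passed and 31.8% (2664 of 8384) had an unadjusted p under 0.05. Of 16 tested genes of the cadherin and catenin complex, 0 passed limma, with 4 at an unadjusted p under 0.05 and a median of -0.01. Cdh1, the cadherin of epithelium, was at 0.05 and -0.13 in mice 1 and 2 and at 1.54 and 1.14 in mice 3 and 4 (limma adjusted p = 0.196). Cdh2, the cadherin of nerve and muscle that fibroblasts also carry, was below 0 in the 3 mice with a value, at -0.42, -0.19 and -1.23 in mice 1, 2 and 3 (limma adjusted p = 0.136). Cdh2 and Cdh11 therefore lay on opposite sides of 0 in these mice. Ctnna1, the gene of alpha-catenin, averaged -0.10 ± 0.34 (SD, n = 3; limma adjusted p = 0.692). The genes of beta-catenin (Ctnnb1) and p120-catenin (Ctnnd1), and the endothelial cadherin gene Cdh5, had too few values.

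Of the CAP domain family of Pi16, only Crispld2 and Glipr1 could be tested among 9 other members with a probe, and 0 passed limma, with 0 at an unadjusted p under 0.05. Crispld2, a secreted protein gene of lung mesenchyme, had 0.44, 0.02 and -0.02 in mice 1, 2 and 3 (limma adjusted p = 0.454). Glipr1 was at -0.11 and -0.16 in mice 1 and 2 and at 0.89 and 0.58 in mice 3 and 4 (limma adjusted p = 0.343). Neither was below 0 on every array, as Pi16 was. Pi15 had too few values, and Glipr2 was not among the named probes.

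In leukotriene synthesis and glutathione turnover, where Dpep1 acts, 3 of 19 other tested genes passed limma, 1 above and 2 below 0, a share of 15.8% beside 12.5% of all genes, and the median was -0.09. Dpep1 had a higher mean than each of the 19. Gclm, the regulatory subunit gene of the enzyme that starts glutathione synthesis, had 0.72, 0.45 and 0.60 in mice 1, 2 and 4 (mean 0.59 ± 0.13, SD, n = 3; limma adjusted p = 0.0255). Chac1, a glutathione-degrading enzyme gene, was below 0 in every mouse at -0.94, -0.84, -0.63 and -0.38 (limma adjusted p = 0.0188). Anpep, which encodes a membrane aminopeptidase, had a mean of -0.47 ± 0.24 (SD, n = 4; limma adjusted p = 0.0434). With 3 mice, 0 of the genes in this group passed without mouse 1 or 2 and 1 without mouse 3 or 4. Chac1 was lost without mouse 1, 2 or 3 and Anpep in each such fit, at limma adjusted p up to 0.0595 and 0.133. Gclm has no value in mouse 3 and was fitted without that mouse only.

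The tested genes of leukotriene synthesis did not pass, and Alox5, the 5-lipoxygenase gene, was not among the named probes. Alox5ap, the activating protein gene of 5-lipoxygenase, was above 0 in the 3 mice with a value, from 0.26 to 0.46 (limma adjusted p = 0.0623). Lta4h, which makes leukotriene B4, averaged 0.18 ± 0.17 (SD, n = 4; limma adjusted p = 0.203), and Ltc4s, which makes leukotriene C4, averaged -0.14 ± 0.29 (SD, n = 4; limma adjusted p = 0.454). Ggt5, whose enzyme turns leukotriene C4 into the leukotriene D4 that Dpep1 cuts, averaged 0.10 ± 0.14 (SD, n = 3; limma adjusted p = 0.495). Dpep2 and Ggt1, which encode further enzymes of these steps, were not among the named probes. Dpep3, another dipeptidase gene, had -0.11, 0.01, -0.835 and -0.585 in mice 1 to 4. Its mean was -0.38 ± 0.40 (SD, n = 4; limma adjusted p = 0.159), on the other side of 0 from Dpep1, and it did not pass.

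Other cells that carry these surface proteins or lie near fibroblasts were looked at in the same way. Of 8 tested smooth muscle genes and 8 tested pericyte genes 0 passed limma in each group, with 1 and 4 at an unadjusted p under 0.05 (31.8% of all genes) and medians of -0.10 and 0.06. Of 8 mesothelial genes, 1 passed, Gpm6a, a membrane glycoprotein gene that is better known from neurons, at 0.87 ± 0.33 (SD, n = 4; limma adjusted p = 0.0187). Msln, the defining mesothelial gene mesothelin, averaged -0.06 ± 0.10 (SD, n = 3; limma adjusted p = 0.653). The call of Gpm6a ended without mouse 1 or 3, with a limma adjusted p of up to 0.0652.

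Fat lies next to the adventitia and in mice holds fibroblast-like progenitors with Pi16, and its genes that passed lay on the same side of 0 as Pi16. Of 9 tested fat cell genes 4 passed limma below 0 and 0 above, with a median of -0.54. This was 44.4% of the group, beside 12.5% of all genes past limma and 4.81% past it below 0. The 4 were Cidea (-2.53 ± 1.55, SD, n = 4; limma adjusted p = 0.0424) and Adipoq (-1.59 ± 0.99, SD, n = 4; limma adjusted p = 0.0444), and Plin4 and Gpd1 at -0.79 and -0.54. Lipe and Pparg had means above 0, at 0.13 and 0.08, and did not pass. The median of these 9 genes was -0.52, -0.08, -0.79 and -0.55 in mice 1 to 4. Cidea and Adipoq were nearest to 0 in mouse 2, at -0.72 and -0.12. Pi16 had -0.427, -0.374, -0.762 and -0.371 in the same order. Both the fat median and Pi16 were farthest below 0 in mouse 3, and in mouse 2 they were at -0.08 and -0.374. The part of fat in the values of Pi16 was not tested. Without mouse 1, 3 or 4, 0 of the fat cell genes passed, and without mouse 2, 5 did. Plin4 has no value in mouse 2 and was fitted without that mouse only.

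Leukocyte genes had 4 of 11 tested members past limma (36.4%, beside 12.5% of all genes), 1 above and 3 below 0, with a median of -0.18. The neutrophil genes S100a8 and S100a9 averaged -2.28 ± 0.62 and -2.08 ± 0.72 (SD, n = 4), and Cd52, a lymphocyte and myeloid surface gene, averaged -1.005 ± 0.385 (SD, n = 3). Mrc1, the mannose receptor gene of macrophages, lay above 0 at 0.74 ± 0.16 (SD, n = 3), with limma adjusted p from 0.00798 to 0.0279 for the 4 genes. Dpep1 and these neutrophil genes lay on opposite sides of 0 in every mouse, and so did Cdh11 and these genes. Since Dpep1 and Cdh11 were picked with their values known and the neutrophil genes were named for passing, this is a description only. Ptprc, the gene of the common leukocyte antigen CD45, averaged 0.29 ± 0.23 (SD, n = 4; limma adjusted p = 0.119). Without mouse 2 or mouse 3, 2 of the leukocyte genes passed, of those with a value in the remaining mice. With mice 1 and 2 and mice 3 and 4 as a random block, the calls of Lox, Ddah1, Plin2, Gclm, Anpep, Cd52 and the 4 fat cell genes ended, with limma adjusted p from 0.0505 to 0.0866. The calls of Postn, Col15a1, Timp3, Inmt, Chac1, Gpm6a, Mrc1, S100a8 and S100a9 held in that fit.

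The genes whose 4 values were most like those of each of the 3 were found by the root mean square difference over the 4 arrays, among 6054 other genes with 4 values. Nearest to Cdh11 were Tmco1, a calcium channel gene of the endoplasmic reticulum, with a difference of 0.043, and Cldn5, the claudin of endothelial tight junctions, with 0.060. Cldn5 had 0.54, 0.85, 1.21 and 0.73 in mice 1 to 4, beside 0.632, 0.825, 1.141 and 0.718 for Cdh11. Ddx5, Kifbp and Arhgef18 followed at 0.107, 0.109 and 0.128. Nearest to Dpep1 were Aggf1, an angiogenic factor gene, at 0.114 and Gpm6a at 0.132, then Mtmr6, Nfya and Dock4 at 0.133, 0.138 and 0.142. These distances were larger than those of Cdh11's 2 nearest genes.

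Nearest to Pi16 were Pdcd2l at 0.045 and Dhrs7b at 0.052, followed by Oxt, Bcas3 and Vmn1r171 at 0.068, 0.081 and 0.090. Oxt encodes the hypothalamic hormone oxytocin and Vmn1r171 a pheromone receptor of the vomeronasal organ, neither a gene known for its level in lung. Vmn1r171 had -0.41, -0.41, -0.59 and -0.39 in mice 1 to 4, and Oxt had -0.33, -0.40, -0.75 and -0.46. The table holds no spot intensities, so whether these spots, or that of Pi16, were bright was not tested. The likeness rests on 4 arrays that share 1 pool.

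**Figure D4:**
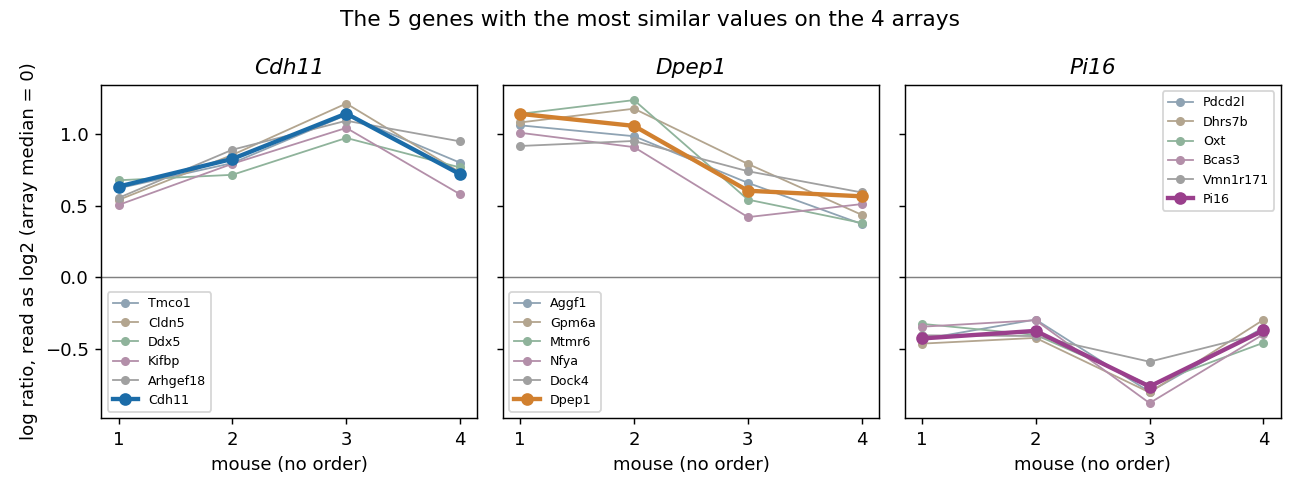
Log ratio (vertical axis, read as log2) in mice 1 to 4 of Cdh11, Dpep1 and Pi16 (thick lines) and of the 5 genes nearest to each (thin lines); the lines only join the values of a gene, since mice have no order. The genes near Cdh11 and Pi16 are farthest from 0 in mouse 3, and those near Dpep1 are higher in mice 1 and 2 than in mice 3 and 4.

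Genes beside the 3 in the genome were also measured. By the order of protein-coding genes in RefSeq's GRCm38.p6 table, the 5 genes on each side of each made 30 neighbours, of which 18 had a probe and 12 were tested. Of these, 0 passed limma and 2 had an unadjusted p under 0.05, counts too small to set apart from the 12.5% and 31.8% of all genes. Their means ran from -0.23, for Mtch1 next to Pi16, to 0.42, for Spata2l, the coding gene 4 steps from Dpep1. Cdh8, a cadherin gene and the nearest coding neighbour of Cdh11 on one side, had a mean of -0.08 ± 0.04 (SD, n = 3; limma adjusted p = 0.537). On the other side the nearest, Cdh5, had too few values, and Tk2, 3 steps away, had -0.02 ± 0.16 (SD, n = 4; limma adjusted p = 0.897). Near Pi16, Mtch1 had a mean of -0.23 ± 0.23 (SD, n = 4; limma adjusted p = 0.179) and BC004004, 2 steps away, of 0.34 ± 0.26 (SD, n = 4; limma adjusted p = 0.101). Near Dpep1, the adjacent Chmp1a had -0.19 ± 0.15 (SD, n = 4; limma adjusted p = 0.165) and Spata2l 0.42 ± 0.19 (SD, n = 3; limma adjusted p = 0.0622). These 6 were named after their values were seen.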

How the data were processed

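The deposited table holds log ratios, read here as log2, for 17280 spots on each array. How the authors scanned the arrays and corrected or normalized the signals was not given in the sources used here. Spots with a value numbered 12136, 11373, 9427 and 10282 for mice 1 to 4, and the number of arrays limits the precision. Each array's median, from -0.009 to 0.029, was subtracted. Probes were named through the platform's annotation, and 14445 of 14722 with 1 symbol were matched by gene ID to RefSeq (0 symbols changed). Probes of a symbol were averaged, and at least 3 values were required. A two-sided limma test (limma 3.58.1 under R 4.3.3; lmFit and eBayes) set each mean against 0, and p-values were adjusted by Benjamini-Hochberg across the 8384 genes, with a threshold of 0.05. The mice are taken as replicates, and p-values leave out the spread between control mice. On simulated log ratios of 8384 genes, with 200 changed, this recovered 20% of changes of 0.5 and 81% of changes of 1, with 2 false calls. The simulated arrays were independent, without the alike pairs and shared pool of the real ones, so these rates need not hold here.

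The 3 genes and the 12 gene lists were chosen with earlier results of these data known. Named genes are the 3, the 5 most like each, all fibroblast list genes past the test, up to 4 of each other list, and 33 set by name. Msln, Ptprc, Dpep3, Cd248, Cd55, Dpt, Sema3c, Anxa3, Efemp1, Ackr3, S100a4, Spon1, Lipe, Pparg and 6 genomic neighbours were added after their values were seen. No set test was run. Alternatives were no centring, arrays scaled to the same spread, the median over probes, values on all 4 or at least 2 arrays, the array pairs as a random block, and each mouse left out.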

Additional observations from a re-analysis of the deposited data

Results flagged for a closer look

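Dixon's 95% critical value was used to mark genes with 1 mouse far from the other 3. Chance passes this value in about 1 in 20 groups. Genes added after their values were seen were left out. Of the 44 other genes named here with 4 values, this rule marked 4. Since Pi16 was picked with its values known and 2 of the 4 genes for their likeness to it, this number cannot be set against the share that chance gives, and the values are a description. Pi16 was at -0.762 in mouse 3, and the gap to the next mouse was 0.857 of the range. Bcas3 and Vmn1r171, which were picked for their likeness to Pi16 and so share its pattern, were at -0.88 and -0.589 in mouse 3. Ddah1 was at -0.155 in mouse 4, with the other mice between -0.466 and -0.474.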

How the results depend on the processing

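Cdh11, Pi16 and Dpep1 kept their side of 0 and moved by less than 1 SD between mice under all alternatives run. Leaving out 1 mouse gave means of 0.725 to 0.895 for Cdh11, -0.521 to -0.391 for Pi16 and 0.741 to 0.932 for Dpep1. With the array pairs as a random block (estimated correlation 0.304 over genes), 402 genes and 565 probes passed limma, against 1048 and 1273, and the calls in the activated, alveolar, leukotriene and fat cell lists became 1, 1, 1 and 0. With values on all 4 arrays, the general, adventitial and alveolar lists had 2, 2 and 4 calls. With at least 2 arrays, the adventitial list had 2 and the cadherin list 1. With arrays scaled to the same spread, the adventitial list had 2 and the pericyte list 1. Without 1 mouse, 277 to 537 genes and 384 to 677 probes passed. In these fits the activated, adventitial and alveolar lists had 1 to 2 calls each, the leukotriene and mesothelium lists 0 to 1, the fat cell list 0 to 5 and the leukocyte list 2 to 3. The cause of these moves was not tested, beyond the fewer arrays or other genes each fit holds. Of 19 named list genes past the test, 10 passed in each fit without 1 mouse that could include them. Among these 10, Cd52, Gclm, Mrc1 and Plin4 had only 1 such fit, which left out none of their values. The 3 genes Anpep, Ddah1 and Lox, the last with values for 1 such fit, passed in none. With the pairs as a block, 9 of the 19 passed. No paired analysis was possible because the mice form 1 group and share 1 pool. Signal over background could not be judged without intensities.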
